A study of Homo sapiens with 6 samples.

Results

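Of the 60651 genes counted in 6 neuroblastoma libraries, 90 encode nuclear subunits of the mitochondrial respiratory chain. Members were chosen by gene symbol alone and had to be protein-coding. Complex I contributed 40 genes (symbols opening with *NDUFA*, *NDUFB*, *NDUFC*, *NDUFS* or *NDUFV*), complex II 4 (*SDHA* to *SDHD*), complex III 9 (*UQCR*), complex IV 17 (*COX4* to *COX8*) and complex V 20 (*ATP5*). Genes of the mitochondrial genome, pseudogenes and the *NDUFAF* assembly factors were left out. Complex III's cytochrome c1 gene *CYC1* has a symbol outside this rule and is given with the other genes of the pathway. The 90 genes lie on 22 chromosomes, and 2 of them are readthrough genes that join a subunit to its neighbour.

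The respiratory chain passes electrons from nutrients to oxygen and stores the released energy as a proton gradient across the inner mitochondrial membrane. Complexes I and II take electrons from NADH and succinate, complex III hands them to cytochrome c, complex IV reduces oxygen, and complex V, the ATP synthase, uses the gradient to make ATP. All but complex II also contain subunits made from the mitochondrial genome. Germline loss of an *SDH* gene predisposes to tumours of the same sympathoadrenal lineage from which neuroblastoma arises.

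Total RNA from 6 samples of a human neuroblastoma cell line had been sequenced after enzymatic removal of ribosomal RNA. Titles named 3 samples EtOH, for the vehicle ethanol, and 3 Tet, for tetracycline, with 5 days of treatment per the labels. The labels disagree about the cells. Titles name IMR575, and a tag speaks of knockdown, whereas the protocol text describes SK-N-SH carrying the pcDNA6TR tetracycline repressor and an inducible *MYCN* construct, kept as single clones under G418 and blasticidin in both groups. The study's methods describe inducible *MYCN* expression in SK-N-AS and an inducible *MYCN* shRNA in IMR-5/75, a *MYCN*-amplified line. Groups therefore follow the titles, and directions below are those of libraries labelled Tet against libraries labelled EtOH. The labels do not say whether replicates were separate cultures. The study's methods give 3 independent biological replicates as the default for its cell experiments, without naming these libraries, and p-values measure the spread between these libraries.

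The targeted gene *MYCN* (ENSG00000134323.12) had 157.9, 256.3 and 155.9 CPM (read counts scaled to a common library size with TMM factors) under EtOH, and 196.6, 200.1 and 145.4 CPM under Tet. Values listed in this way stand for replicates 1, 2 and 3 of the libraries labelled EtOH or Tet. The groups overlapped, and the log2 fold change of -0.07 (SE 0.23 and edgeR's adjusted p = 0.956) did not tell them apart. Here a log2 fold change is the level in libraries labelled Tet over that in libraries labelled EtOH, SE is its standard error, and the adjusted p is corrected for all genes tested, with a threshold of 0.05. Libraries held between 27933378 and 40498065 counts. Scaled by these totals without the TMM factors, 3 counts correspond to 0.0741 to 0.107 CPM. Of 10 adrenergic neuroblastoma markers, 8 had a mean of at least 1 CPM, with *TH* and *DBH* under that level, and the summed level was 632 to 716 CPM in libraries labelled EtOH and 740 to 882 CPM in those labelled Tet. Mesenchymal markers summed to 275 to 470 against 240 to 340 CPM, fibroblast markers to 13.5 to 18.7 against 21.7 to 24.4 CPM, and Schwann markers to 2.38 to 3.18 against 1.38 to 4.78 CPM. Leukocyte markers stayed at or under 1.61 CPM and endothelial markers at or under 0.112 CPM in every library. The defining markers *COL1A2*, *S100B*, *CD3E*, *VWF* and *TWIST2* had a count of 0 in all 6 libraries. The adrenergic sum was higher in all libraries labelled Tet. So was the fibroblast sum, which followed *COL3A1* (log2 fold change 1.03), while the other tested markers of that list, *COL1A1* and *LUM*, had -0.54 and -0.50. The part of either list in the values below was not tested.

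Before the values, 3 pairs of small subunits illustrate a property that varied with level, the share of G and C bases, and they were picked after their values were seen. Each pair comes from the same complex, with the less abundant gene first. Coding sequences are read from GENCODE 44 on GRCh38, from the start codon to the last codon before the stop, and capitals mark runs of at least 4 G or C bases. *COX8A* (chr11:63974620-63976543, plus strand) and *COX7C* (chr5:86617928-86620962, plus strand) encode small membrane subunits of cytochrome c oxidase.
COX8A: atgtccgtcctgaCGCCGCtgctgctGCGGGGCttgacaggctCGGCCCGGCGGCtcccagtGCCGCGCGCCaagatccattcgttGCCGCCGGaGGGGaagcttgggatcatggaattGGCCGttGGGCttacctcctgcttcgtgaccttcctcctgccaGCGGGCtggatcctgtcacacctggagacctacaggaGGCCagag
COX7C: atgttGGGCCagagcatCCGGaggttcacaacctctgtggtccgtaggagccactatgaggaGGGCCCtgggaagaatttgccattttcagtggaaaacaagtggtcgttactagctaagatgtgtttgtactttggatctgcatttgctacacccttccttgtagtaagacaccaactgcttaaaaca

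*UQCR11* (chr19:1597169-1605473, minus strand) and *UQCRH* (chr1:46303698-46316776, plus strand) encode the smallest subunit of complex III and its hinge protein, which contacts cytochrome c1.
UQCR11: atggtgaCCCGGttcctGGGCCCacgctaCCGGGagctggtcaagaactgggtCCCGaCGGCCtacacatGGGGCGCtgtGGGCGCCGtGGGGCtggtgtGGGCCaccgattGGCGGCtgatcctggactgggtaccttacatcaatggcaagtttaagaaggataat
UQCRH: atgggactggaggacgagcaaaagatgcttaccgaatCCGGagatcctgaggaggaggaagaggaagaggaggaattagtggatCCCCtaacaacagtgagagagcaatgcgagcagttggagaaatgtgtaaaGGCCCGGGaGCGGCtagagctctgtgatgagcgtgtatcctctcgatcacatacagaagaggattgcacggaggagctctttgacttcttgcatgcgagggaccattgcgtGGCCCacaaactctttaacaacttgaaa

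*ATP5ME* (chr4:672436-674330, minus strand) and *ATP5MK* (chr10:103389041-103396492, minus strand) encode small membrane subunits that help ATP synthase form dimers.
ATP5ME: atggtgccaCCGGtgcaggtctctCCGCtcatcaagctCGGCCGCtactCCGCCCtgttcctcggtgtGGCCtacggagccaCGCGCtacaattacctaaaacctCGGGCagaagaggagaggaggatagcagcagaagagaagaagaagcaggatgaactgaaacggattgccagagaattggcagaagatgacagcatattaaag
ATP5MK: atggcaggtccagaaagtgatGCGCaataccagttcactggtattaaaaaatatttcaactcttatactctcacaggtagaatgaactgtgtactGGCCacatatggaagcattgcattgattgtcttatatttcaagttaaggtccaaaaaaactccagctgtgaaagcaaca

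Runs of G and C covered 66 bases of the 207-base coding sequence of *COX8A* and 15 of 189 in *COX7C*. They covered 56 of 168 bases in *UQCR11* and 26 of 273 in *UQCRH*, and 35 of 207 in *ATP5ME* against 8 of 174 in *ATP5MK*. Levels per exon length, in TPM (counts divided by exon length and scaled to a common sum per library), differed between the genes of each pair by far more than their spread over the 6 libraries. *COX8A* was at 2.51 ± 1.86 TPM and *COX7C* at 91.8 ± 15.4 TPM (SD, n = 6). *UQCR11* had 1.49 ± 0.337 TPM and *UQCRH* 75.9 ± 12.9 TPM. *ATP5ME* had 4.20 ± 2.22 TPM and *ATP5MK* 198.8 ± 62.3 TPM. The subunits of a complex are needed in fixed ratios in the assembled enzyme, and the measured levels of their messengers were not equal here. Of the 90 members, 50 have at least 1 pseudogene and 34 share over 10% of their exon bases with other genes. The part of base composition, of reads lost to similar copies and of shared exons in the measured levels was not tested.

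Such a spread was seen within every complex. Among the 84 members that passed the filter on low counts, mean TPM over the 6 libraries ranged from 0.274 for *NDUFA11*, an accessory subunit of the membrane arm of complex I, to 198.8 for *ATP5MK*. Between its lowest and highest tested member, complex I spanned a ratio of 610, complex V of 225, complex III of 76.3, complex IV of 54.6 and complex II of 26.6. Median levels were 10.3, 23.8, 8.70, 15.2 and 22.8 TPM for complexes I to V, against 6.10 TPM over all 22443 genes tested and 7.06 TPM over the 12830 protein-coding genes among them. Of the 84 members, 5 reached a mean of 100 TPM and 8 were under 1 TPM.

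**Figure D1:**
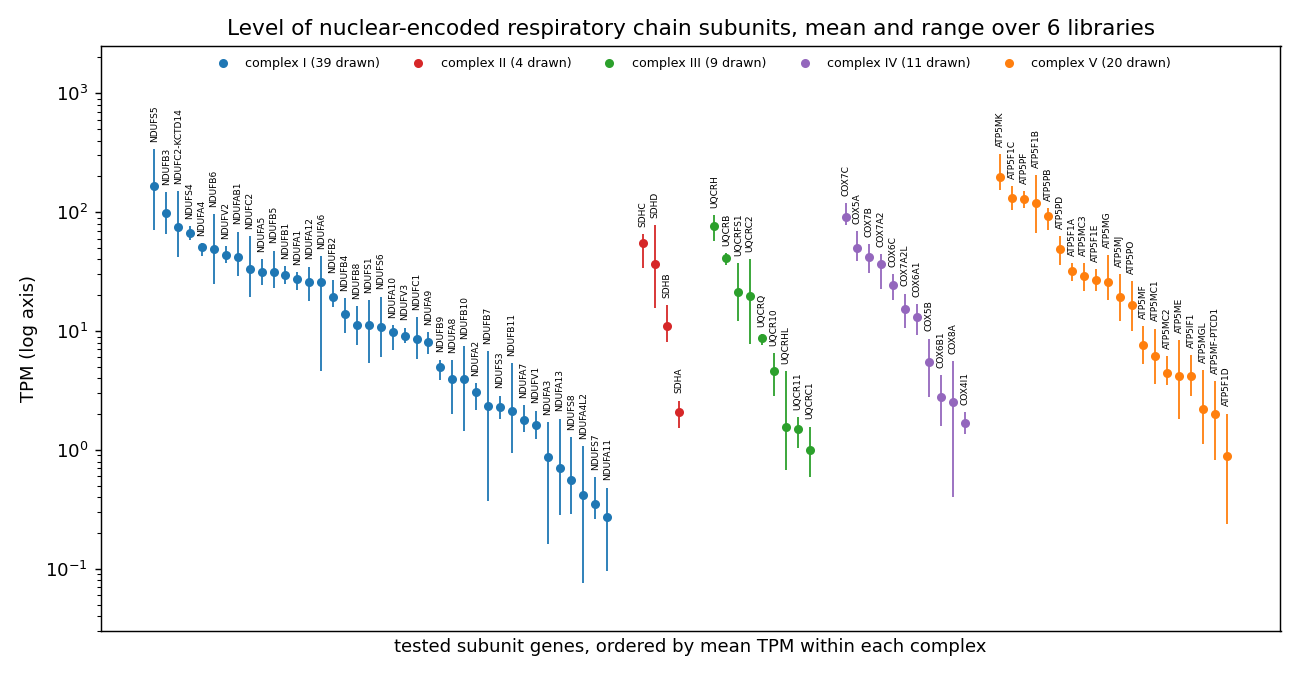
Mean TPM (points, log axis) and the range over the 6 libraries (lines) of 83 of the 84 tested subunit genes, ordered within each complex. Complex I runs from *NDUFS5* at 166.9 TPM to *NDUFA11* at 0.274 TPM, and every other complex also spans more than an order of magnitude.

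In complex I, the accessory subunit *NDUFS5* had the highest mean level, 166.9 ± 99.9 TPM (SD, n = 6). The 7 core subunits, which together carry the flavin and iron-sulphur centres that move electrons, had a median of 2.29 TPM, against 11.4 TPM for the 33 accessory subunits. Within the core, *NDUFV2* had 43.5 ± 5.10 TPM, while *NDUFV1*, its partner in NADH oxidation, had 1.61 ± 0.301 TPM. In complex II, the membrane anchors *SDHC* and *SDHD* had 55.4 ± 11.4 and 36.5 ± 22.6 TPM. The iron-sulphur subunit *SDHB* had 11.1 ± 3.02 TPM, and the flavoprotein *SDHA*, which oxidises succinate, 2.08 ± 0.442 TPM. The ranges of *SDHC* and *SDHD* overlapped, and *SDHA* lay below the others in every library.

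In complex III, *UQCRH* was followed by *UQCRB* at 41.0 ± 3.16 TPM, and the core protein *UQCRC1* was lowest at 0.995 ± 0.376 TPM. The other core protein, *UQCRC2*, had 19.6 ± 12.1 TPM. In the ATP synthase, the catalytic F1 head holds equal numbers of the alpha and beta subunits *ATP5F1A* and *ATP5F1B*, whose levels were 31.8 ± 3.51 and 120.1 ± 48.1 TPM. The ratio of such levels depends on the exon length used, which is described below. The delta subunit *ATP5F1D* of the same head was at 0.883 ± 0.628 TPM. The c ring, which turns as protons pass, is encoded by 3 genes with the same mature protein. Of these *ATP5MC3* had 29.1 ± 6.07 TPM, *ATP5MC1* 6.19 ± 2.60 TPM and *ATP5MC2* 4.47 ± 0.950 TPM, and *ATP5MC1* and *ATP5MC2* did not differ beyond their spread. The 4 genes of the peripheral stalk, which holds the head still, lay between 16.7 and 129.0 TPM.

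Levels were lower where the GC content of the transcript was higher. Over the 84 tested members, mean TPM had a Spearman correlation of -0.73 and log2(TPM + 1) a Pearson correlation of -0.74 with the GC content of the canonical transcript. The points share their libraries, and genes are not independent replicates, so the correlation is given as a description. For the 55 members of at least 5 CPM the correlations were weaker, -0.39 (Spearman) and -0.41 (Pearson). Over all 84 it was between -0.71 and -0.75 (Spearman) in each of the 6 libraries. The 12746 other protein-coding genes tested had a Spearman correlation of -0.63, so the relation was not particular to the respiratory chain genes. Members with 40 to 45% GC had a median of 33.5 TPM (17 genes), those with 50 to 55% had 4.33 TPM (18 genes) and those over 60% had 0.708 TPM (9 genes). Other protein-coding genes in the same bins had medians of 21.0, 3.75 and 0.652 TPM. The largest excess over them was at 45 to 50% GC, where the median was 25.8 TPM for 21 members and 9.59 TPM for the other genes.

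**Figure D2:**
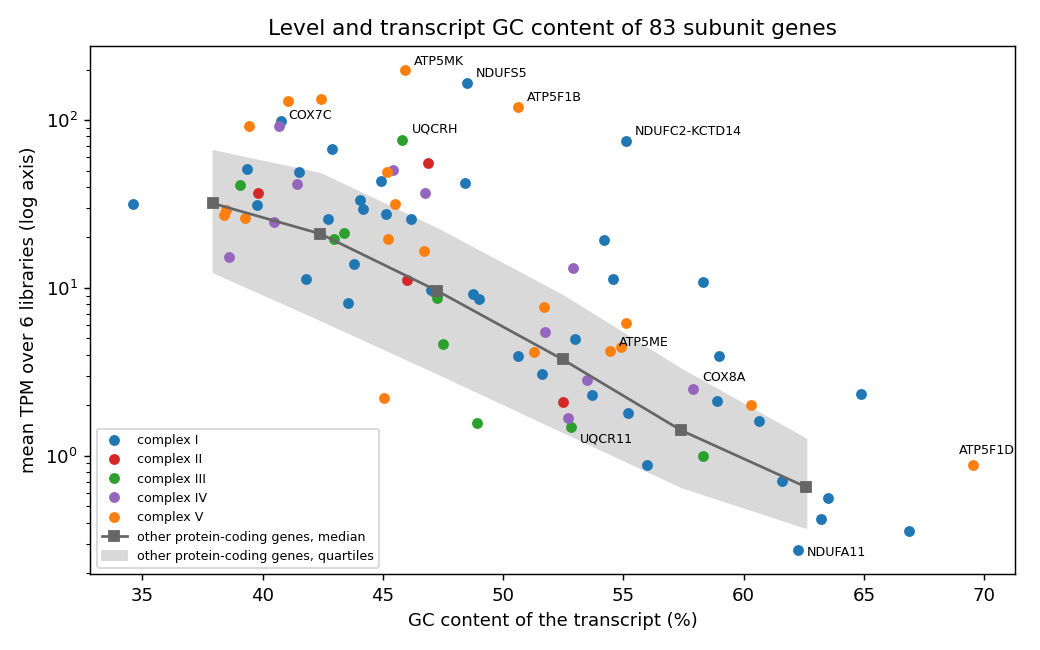
Mean TPM over 6 libraries (log axis) against transcript GC content for 83 of the 84 tested subunit genes, coloured by complex, with the median (squares) and quartiles (grey band) of other protein-coding genes in 6 bins of GC content. Members fall from a median of 33.5 TPM at 40 to 45% GC to 0.708 TPM above 60%, along the slope of the other genes.

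The exon length in the deposited tables joins all exons of a gene, and it is long where a short messenger has long alternative forms. With the length of the canonical transcript in its place, the Spearman correlation of the members was -0.64. *SDHC*, *UQCRH* and *COX7C* still led their complexes, at 63.3, 148.9 and 225.6 TPM. In complex I *NDUFB1* (165.7 TPM) then stood above *NDUFS5* (146.0 TPM), and in complex V *ATP5PF* (387.5 TPM) stood above *ATP5MK* (218.0 TPM). The order at the top of complexes I and V thus rests on the length used. Levels of the other subunits named above, *ATP5F1A* and *ATP5F1B* among them, are given by the joined exon length only. Their ratios may change with the length as well.

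Several subunits exist in tissue-specific forms, and the forms known from muscle, lung or testis were at or near 0. *COX4I2*, *COX6A2*, *COX7B2* and *COX8C* had a count of 0 in all 6 libraries, which allows up to 0.107 CPM (by total counts) in the shallowest. *COX7A1*, the heart and muscle form, had 17 counts in all, and *COX6B2*, the testis form, 25. These 6 genes were the members that did not pass the filter. Their widely expressed counterparts differed in level. *COX7A2* had 36.6 ± 7.84 TPM, *COX7A2L* 15.2 ± 3.52 TPM, *COX7B* 41.6 ± 7.33 TPM and *COX6A1* 13.2 ± 2.57 TPM (SD, n = 6). *COX6B1* was at 2.82 ± 0.929 TPM and *COX4I1*, the common form of the largest nuclear subunit of the oxidase, at 1.68 ± 0.279 TPM. *NDUFA4*, first assigned to complex I and now placed in complex IV (counted here with complex I by its symbol), had 50.8 ± 4.76 TPM, while *NDUFA4L2*, its hypoxia-inducible relative, had 0.422 ± 0.375 TPM. *UQCRHL*, an intronless copy of *UQCRH*, had 1.57 ± 1.55 TPM. Reads that align equally well to both copies are absent from unique counts, which makes the values of both uncertain.

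Promoters of the members were searched for short motifs of factors that regulate respiration. RefSeq windows on GRCh38.p14, from 250 bases before to 50 after a transcript start, held entries for 71 of the 90 members, with 84 windows among 35116 in all. The 35116 windows cover 27305 genes, more than the 19946 protein-coding genes annotated here. Unlike the members, they are thus not limited to protein-coding genes, and no share over those alone is given. Motifs were read on both strands. The core of the site of the regulator NRF1, CATGCGC, was in 20.2% of member windows and in 4.43% of all windows. The ETS site CCGGAAG, to which GABP binds, was in 26.2% against 10.3%. The E-box CACGTG, which MYC family proteins bind, was in 8.33% against 7.26%. The GC box GGGCGG was in 61.9% against 44.95%, CCAAT in 34.5% against 34.6% and TATAAA in 8.33% against 11.5%. None of these 6 motifs contains another. The median log2 fold change was -0.03 for 15 tested members with the NRF1 core and -0.04 for 52 without it, and -0.11 for 7 members with the E-box against -0.03 for 60 without.

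The 250 bases before the start are shown for *SDHB*, which has both an NRF1 core and an ETS site, and for *UQCRFS1*, the member with the lowest p-value below, which has neither, nor an E-box. Both genes lie on the minus strand, so the sequences are those of that strand, and capitals mark the NRF1 core and the ETS site. The windows are chr1:17054033-17054282 for *SDHB* and chr19:29213152-29213401 for *UQCRFS1*. A match describes letters in this window and is not a binding site.
SDHB: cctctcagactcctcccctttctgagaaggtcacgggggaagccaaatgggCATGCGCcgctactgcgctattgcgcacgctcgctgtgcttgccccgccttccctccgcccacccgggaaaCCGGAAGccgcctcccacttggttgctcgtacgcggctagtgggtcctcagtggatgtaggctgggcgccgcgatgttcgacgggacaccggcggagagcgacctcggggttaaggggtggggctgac
UQCRFS1: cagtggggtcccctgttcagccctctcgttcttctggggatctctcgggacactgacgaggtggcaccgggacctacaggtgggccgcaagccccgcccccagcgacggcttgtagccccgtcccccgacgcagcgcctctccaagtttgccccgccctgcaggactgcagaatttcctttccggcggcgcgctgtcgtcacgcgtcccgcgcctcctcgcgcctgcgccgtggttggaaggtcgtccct

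The comparison of libraries labelled Tet with those labelled EtOH asked whether the subunits of any complex moved with the treatment. No member passed the threshold: 0 of 84 tested had an edgeR adjusted p under 0.05, against 0.236% (53 genes) of all 22443 genes tested. At an unadjusted p under 0.05, 1 member lay above and 2 lay below their EtOH level, or 1.19% and 2.38% of members, where 5.83% and 4.94% of all genes were. The groups did not overlap for 2 members higher in libraries labelled Tet and 1 lower, against 9.2% and 8.28% of all genes. These shares lie under those of all genes. Among all members, 71 of 84 had a log2 fold change of less than 0.5 in size, and for 58 it was smaller than its SE. In bulk RNA, fewer cells of a type and less RNA per cell cannot be told apart, which holds for each difference below.

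With the replicate number as a block, 1 member (*UQCRFS1*) passed, lower in libraries labelled Tet, and 675 of all genes were called, of which 254 (1.13%) were lower. DESeq2 also called 1 member, *UQCRFS1*, with 0.932% of all genes lower, and limma-voom called 0. Without EtOH replicate 2, 3 members passed, all lower (*UQCRFS1*, *NDUFS5* and *UQCRHL*), with 1.38% of all genes called lower.

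By complex, the median log2 fold change was 0.03 for complex I, -0.29 for complex II, -0.07 for complex III, -0.05 for complex IV and -0.09 for complex V. The median over all 84 members was -0.04 and that over all genes tested -0.01. With the replicate block the medians were 0.08, -0.25, -0.07, -0.23 and -0.05 for complexes I to V. Members of complex I divided into 22 above and 18 below 0, those of complex IV into 1 and 10, and those of complex V into 8 and 12. The 7 core subunits of complex I had a median of -0.12 and the 33 accessory subunits one of 0.04. Within complex V, medians were -0.09 for the F1 head, 0.23 for the c ring, -0.11 for the peripheral stalk and -0.10 for the small membrane subunits, and the inhibitor *ATP5IF1*, which stops the enzyme from running backwards, had 0.22 (SE 0.36 and edgeR's adjusted p = 0.896).

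**Figure D3:**
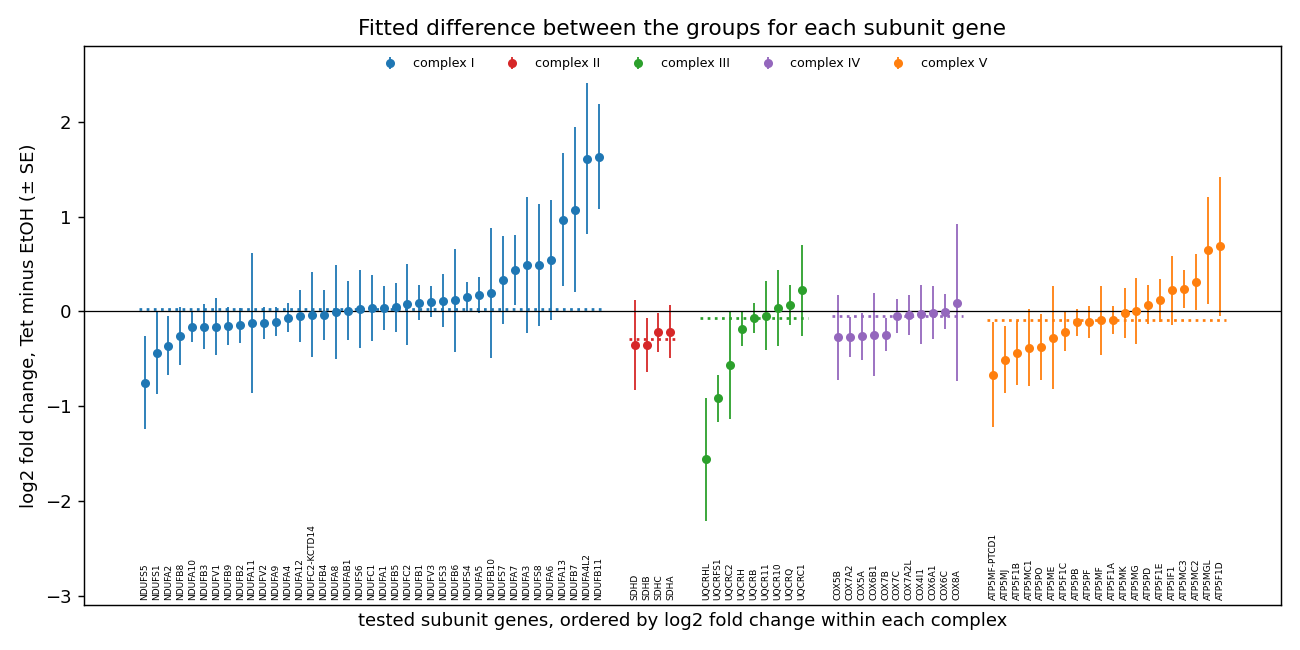
Log2 fold change (Tet minus EtOH) of 83 of the 84 tested subunit genes with SE, ordered within each complex, with the median over all tested genes of each complex dotted. Most intervals of 1 SE cross 0. The 4 genes of complex II all lie below 0 (50.7% of all genes tested do), around a median of -0.29.

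The summed level of the 90 members was nevertheless lower in each library labelled Tet than in any labelled EtOH. It was 2573, 2435 and 2362 CPM under EtOH and 2268, 2337 and 2223 CPM under Tet. As a share of all deposited counts these were 0.270%, 0.234% and 0.244% against 0.229%, 0.224% and 0.218%. No test was made of the sum, which gives most weight to the genes with the most reads. Of the difference of -180.4 CPM between the group means, complex V held -72.0 CPM, complex III -42.1, complex I -27.2, complex IV -21.1 and complex II -18.2 CPM. Only complex V had sums that kept the groups apart, while those of the other complexes overlapped. Its sums were 967, 839 and 867 CPM under EtOH and 818, 833 and 807 CPM under Tet. Among single genes, 8.28% of all tested had groups apart in this direction. That share does not carry over to sums of many genes, for which no such share is given here. The catalytic beta subunit *ATP5F1B* had the largest count of any F1 gene in EtOH replicate 1, and its values were 169.7, 66.4 and 103.9 CPM under EtOH and 106.0, 83.5 and 61.3 CPM under Tet. Its groups overlapped (log2 fold change -0.44, SE 0.33 and edgeR's adjusted p = 0.718).

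*UQCRFS1* (ENSG00000169021.6, chr19:29205320-29213151, minus strand) encodes the Rieske iron-sulphur protein, the subunit of complex III that takes electrons from ubiquinol. It had 42.5, 21.8 and 29.7 CPM under EtOH and 17.9, 16.5 and 15.4 CPM under Tet. Every library labelled Tet was below every library labelled EtOH, and the libraries labelled Tet lay close together. The log2 fold change was -0.92 (SE 0.25), with an unadjusted p of 0.00523 and an edgeR adjusted p of 0.207. With the replicate block it was -0.87 (edgeR adjusted p = 0.0342). Fits without any 1 library gave between -1.12 and -0.65, and across all alternatives the adjusted p lay between 0.0179, without EtOH replicate 2, and 0.542. None of its exon bases are shared with another gene, and 3 pseudogenes carry its symbol. It was the only member of at least 5 CPM with groups that did not overlap.

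The groups overlapped for every other subunit of complex III. *UQCRC2*, a core protein, had 68.5, 12.2 and 38.3 CPM under EtOH and 36.0, 13.4 and 31.0 CPM under Tet, a log2 fold change of -0.57 (SE 0.56). *UQCRQ*, a small membrane subunit, had the highest log2 fold change of the complex among members of at least 5 CPM, with 7.81, 6.78 and 6.22 CPM under EtOH and 6.95, 6.88 and 7.95 CPM under Tet (log2 fold change 0.07, SE 0.21 and edgeR's adjusted p = 0.956), and its sign turned without EtOH replicate 3 or Tet replicate 3. *UQCRH* had 46.6, 38.1 and 34.2 CPM under EtOH and 32.9, 40.2 and 31.7 CPM under Tet (-0.18, SE 0.18). *UQCRHL* had 3.74, 0.505 and 1.42 CPM under EtOH, and 0.709, 0.564 and 0.654 CPM under Tet. Its log2 fold change of -1.56 (SE 0.65, unadjusted p = 0.0402, edgeR adjusted p = 0.433) rests on EtOH replicates 1 and 3, which were above every library labelled Tet, while EtOH replicate 2 was below them all.

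All 4 *SDH* genes had a fitted difference below 0, where 50.7% of all genes tested did, and none of the 4 passed the threshold. *SDHA* (chr5:218241-257082) had 7.59, 7.72 and 6.41 CPM under EtOH and 5.00, 4.96 and 8.71 CPM under Tet. Tet replicate 3 was above every other library, so the groups overlapped (log2 fold change -0.22, SE 0.28 and edgeR's adjusted p = 0.858). *SDHB* (chr1:17018722-17054032) had 14.3, 7.39 and 10.3 CPM and 8.12, 6.88 and 10.1 CPM in the same order, a log2 fold change of -0.35 (SE 0.28 and edgeR's adjusted p = 0.734). *SDHC* (chr1:161314381-161363206) had 45.9, 35.8 and 42.6 CPM and 42.5, 37.8 and 26.4 CPM, with -0.22 (SE 0.21 and edgeR's adjusted p = 0.786). Its lowest library was Tet replicate 3, in which *SDHA* was highest. *SDHD* (chr11:112086824-112120016) had 25.6, 74.0 and 23.4 CPM and 34.6, 43.6 and 17.9 CPM, with -0.35 (SE 0.48 and edgeR's adjusted p = 0.866). Its direction rests on EtOH replicate 2, without which the log2 fold change was 0.39 (edgeR adjusted p = 0.515).

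Among complex I genes of at least 5 CPM, *NDUFS5* (ENSG00000168653.11) had the lowest log2 fold change and *NDUFA6*, an accessory subunit of the matrix arm, the highest. *NDUFS5* had 69.2, 13.2 and 45.4 CPM under EtOH and 23.4, 19.9 and 32.6 CPM under Tet. EtOH replicate 2 was the lowest library of all, and the log2 fold change was -0.75 (SE 0.49 and edgeR's adjusted p = 0.665). Without EtOH replicate 2 it was -1.17 (edgeR adjusted p = 0.0343), and 6 pseudogenes carry its symbol. *NDUFA6* had 2.32, 8.19 and 21.0 CPM against 16.9, 10.3 and 18.5 CPM, a log2 fold change of 0.54 (SE 0.63 and edgeR's adjusted p = 0.840). EtOH replicate 1 alone was far below the rest, and fits without any 1 library ranged from 0.04 to 1.501.

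In complex IV, *COX7A2* had 31.4, 24.7 and 28.1 CPM under EtOH and 28.7, 23.3 and 17.8 CPM under Tet (log2 fold change -0.27, SE 0.21 and edgeR's adjusted p = 0.723). *COX6C*, at the other end of the complex among genes of at least 5 CPM, had 23.7, 27.6 and 21.9 CPM under EtOH and 25.4, 27.4 and 20.2 CPM under Tet, and the difference was far under the SE of its log2 fold change (0.18). The most abundant gene of the complex, *COX7C*, had 62.9, 79.5 and 59.5 CPM under EtOH and 54.6, 72.3 and 68.6 CPM under Tet (-0.05, SE 0.18). In the ATP synthase, the proteolipid *ATP5MJ* had 38.1, 14.0 and 34.8 CPM under EtOH and 18.5, 16.8 and 25.5 CPM under Tet (-0.51, SE 0.35 and edgeR's adjusted p = 0.684), and its groups overlapped. *ATP5MC2* had 6.36, 4.62 and 6.41 CPM under EtOH and 4.96, 6.80 and 9.79 CPM under Tet (0.31, SE 0.30 and edgeR's adjusted p = 0.791). *ATP5MK* had 53.4, 96.1 and 52.6 CPM under EtOH and 59.2, 81.2 and 58.8 CPM under Tet (-0.02, SE 0.26).

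The alternative forms described above all had overlapping groups. *COX4I1* had 3.29, 2.78 and 3.04 CPM under EtOH and 2.34, 2.43 and 4.13 CPM under Tet. *COX6A1* had 8.34, 4.18 and 7.14 CPM under EtOH and 6.66, 6.32 and 6.49 CPM under Tet, and *COX6B1* 2.15, 0.938 and 1.59 CPM under EtOH and 0.780, 1.38 and 1.76 CPM under Tet. *COX7A2L*, which takes part in joining complexes into supercomplexes, had 28.5, 39.1 and 27.1 CPM under EtOH and 31.8, 35.8 and 24.5 CPM under Tet. *COX7B* had 59.98, 45.3 and 44.8 CPM under EtOH and 41.7, 46.1 and 38.6 CPM under Tet, and *COX8A*, near the limit of detection, 0.502, 0.577 and 0.298 CPM under EtOH and 0.0709, 0.226 and 1.13 CPM under Tet. *NDUFA4* had 68.5, 59.5 and 70.3 CPM under EtOH and 67.1, 54.7 and 67.4 CPM under Tet, and *NDUFA4L2* 0.446, 0.0721 and 0.132 CPM under EtOH and 0.603, 0.226 and 1.23 CPM under Tet. In the c ring, *ATP5MC1* had 10.2, 3.17 and 6.81 CPM under EtOH and 6.31, 5.33 and 3.85 CPM under Tet and *ATP5MC3* 31.4, 49.2 and 33.5 CPM under EtOH and 43.3, 47.8 and 42.9 CPM under Tet. *ATP5MC3* was highest in EtOH replicate 2, where *ATP5MC1* was lowest.

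Outside the rule for named genes, and chosen after their values were seen, are the 2 members whose libraries labelled Tet were all above those labelled EtOH. Both are accessory subunits of complex I at low level. *NDUFB11* (162 counts in all) had 0.335, 0.397 and 0.397 CPM under EtOH and 0.780, 0.621 and 2.09 CPM under Tet. Tet replicate 3 was far above the others, and the log2 fold change of 1.63 (SE 0.55, unadjusted p = 0.0169, edgeR adjusted p = 0.320) was 0.89 at its lowest with 1 library left out. *NDUFA7* (185 counts in all) had 0.784 ± 0.0730 and 1.06 ± 0.261 CPM (0.44, SE 0.37 and edgeR's adjusted p = 0.755).

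**Figure D4:**
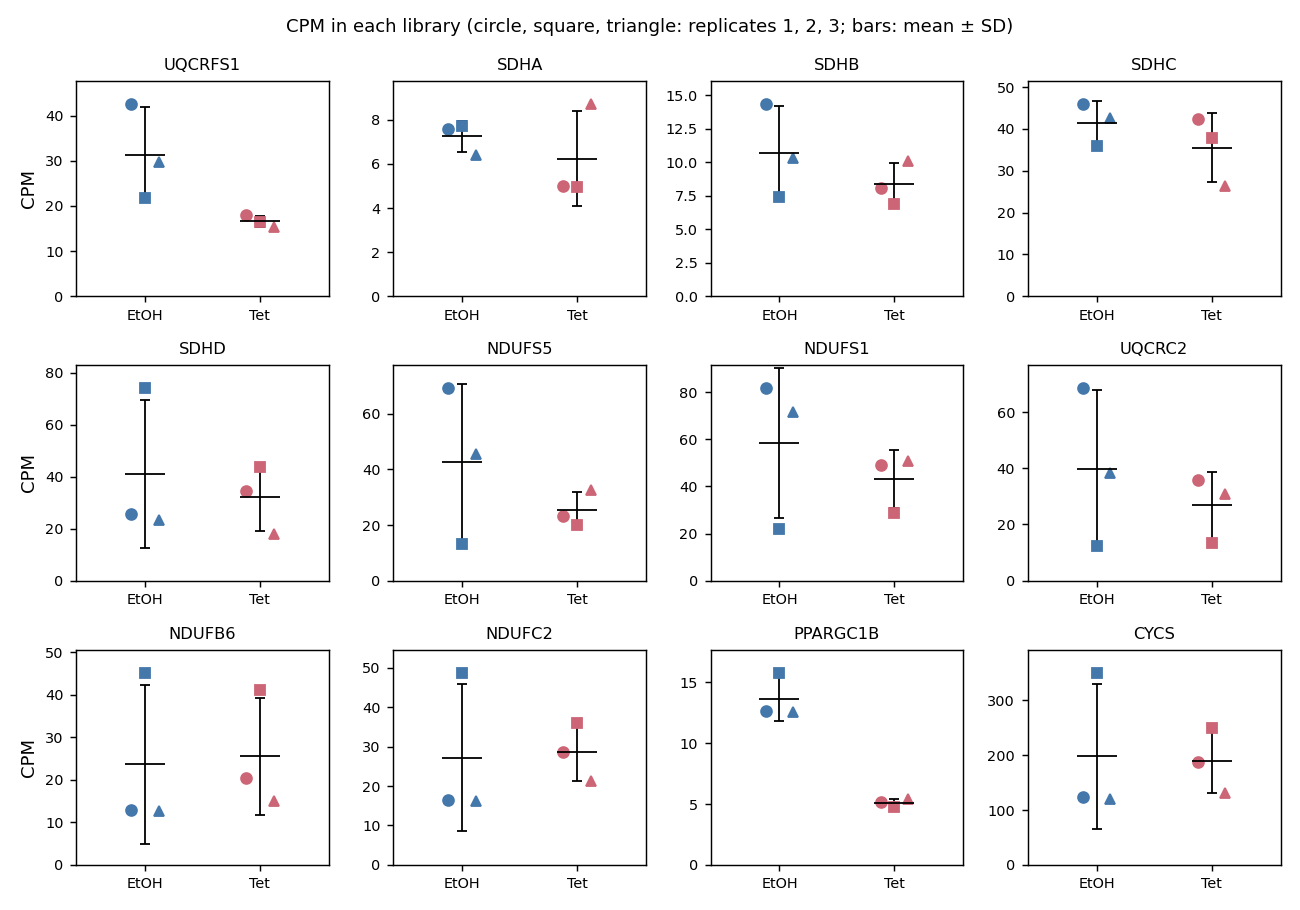
CPM in each library for *UQCRFS1*, the 4 *SDH* genes, 5 subunits that set EtOH replicate 2 apart, the coactivator gene *PPARGC1B* and the cytochrome c gene *CYCS*, with mean and SD (n = 3). The groups are apart for *UQCRFS1* and *PPARGC1B*, while EtOH replicate 2 (square) is the lowest or the highest library for *NDUFS5*, *NDUFS1*, *UQCRC2*, *NDUFB6*, *NDUFC2*, *SDHD* and *CYCS*.

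Libraries of the same group also differed, and members of a complex then lay on opposite sides of their means. In EtOH replicate 2, 20 of the 55 members of at least 5 CPM lay more than 0.5 (log2 CPM) from their mean over the 6 libraries, 9 above and 11 below, or 36.4% against 26.3% of all 10089 genes of that level. Without the limit on level the shares were close, 36.9% of 84 members and 38.5% of all genes tested. Set against the mean of EtOH replicates 1 and 3, 9 of these members were at 0.5 times the level or less and 6 at 2 times or more. That was 16.4% and 10.9% of them, where 7.78% and 5.90% of all genes at that level were. Without that limit the shares were 17.9% and 8.33% of members and 17.5% and 8.28% of all genes tested. The members' shares thus exceeded those of all genes at that level, and were close to them without it. Whether the pattern is particular to the respiratory chain was not tested.

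Among the members that were low there, *NDUFS1*, the largest core subunit of complex I, had 81.7, 22 and 71.5 CPM under EtOH and 49.3, 28.9 and 51.0 CPM under Tet. The stalk subunit *ATP5PO* had 30.7, 10.8 and 24.6 CPM and 18.7, 13.7 and 18.5 CPM. *UQCRC2*, *NDUFS5* and *ATP5MJ* had the same order of libraries under EtOH. The 7 core subunits of complex I together summed to 175.7, 77.8 and 163.5 CPM under EtOH.

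Other members were high in the same library. *NDUFB6*, an accessory subunit of the membrane arm, had 12.9, 45.2 and 12.8 CPM under EtOH and 20.3, 41.2 and 15.1 CPM under Tet. *NDUFC2* had 16.5, 48.8 and 16.3 CPM and 28.6, 35.9 and 21.2 CPM, and its readthrough gene *NDUFC2-KCTD14* had a like pattern but shares 99.6% of its exon bases with other genes, so that the pair counts as a shared signal. *NDUFAB1*, the mitochondrial acyl carrier protein, had 18.8, 35.9 and 16.4 CPM under EtOH, and *ATP5MG*, a membrane subunit of ATP synthase, 19.8, 43.4 and 19.9 CPM. *SDHD* was part of this set. Accessory subunits of complex I summed to 708, 886 and 701 CPM under EtOH, so this sum was highest in the library where that of the core was lowest. Tet replicate 2 lay on the same side of the mean as EtOH replicate 2 for 50 of the 55 members (90.9%) and for 66.6% of all genes of that level. The mitochondrial genome took 4.12% of counts in EtOH replicate 2 and between 5.86% and 10.01% in the other libraries. This library also followed base composition. The median deviation of other protein-coding genes in it went from 0.29 under 40% GC to -0.27 at 50 to 55% and -0.35 over 60%, and that of members was 0.26, -0.44 and -0.18 in the same bins. The core subunits of complex I had a median GC content of 53.7% and the accessory subunits 48.8%. The part of mitochondrial RNA and of base composition in these values was not tested.

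**Figure D5:**
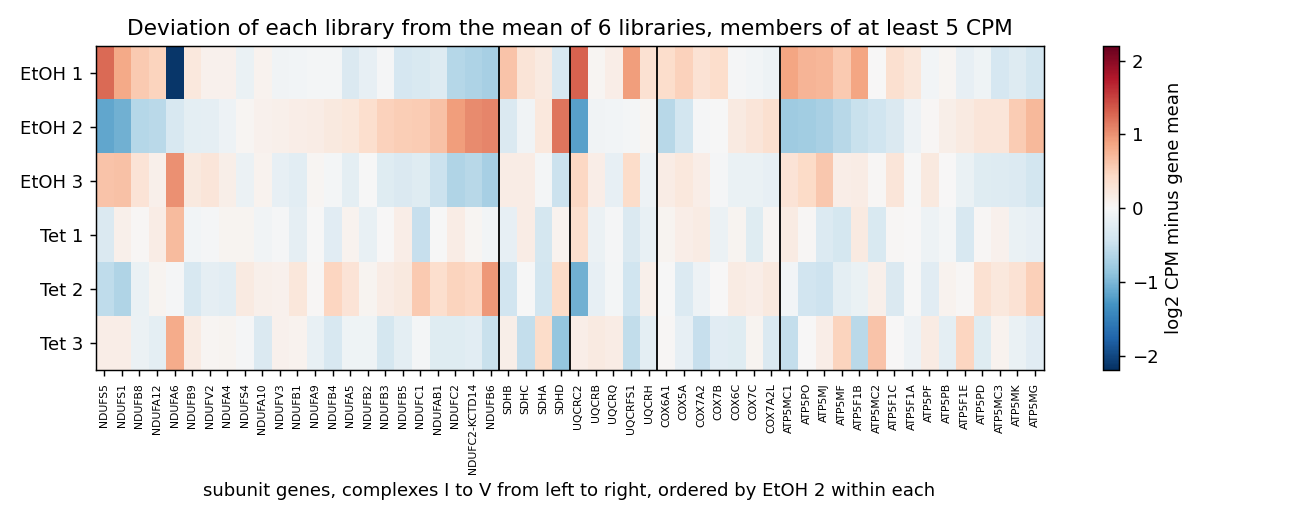
Deviation of log2 CPM from the gene's mean over 6 libraries (colour) for 54 of the 55 members of at least 5 CPM, with complexes I to V from left to right and genes ordered by EtOH replicate 2. By this order, EtOH replicate 2 goes from below to above the mean within complexes I and V. EtOH replicates 1 and 3 mostly go the other way, which is partly built in, since each mean includes all 6 libraries. *NDUFA6* departs from this, with -0.35 in EtOH replicate 2 and -2.14 in EtOH replicate 1.

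Another library stood apart by base composition in the genes richest in GC. In Tet replicate 3, the 9 tested members of over 60% GC had a median deviation of 1.46 (log2 CPM) from their mean over the libraries, and the 9 of 55 to 60% one of 0.86. Other protein-coding genes of these bins had 0.96 and 0.43. In the other 5 libraries the members over 60% GC had median deviations between -0.56 and 0.39. *NDUFB7* (105 counts in all, 64.9% GC) had 0.0709 to 0.418 CPM in the other 5 libraries and 1.48 CPM in Tet replicate 3, and *NDUFA13* (153 counts, 61.6% GC) 0.282 to 0.595 and 2.04 CPM. The median log2 fold change of the members over 60% GC was 0.49, and that of other protein-coding genes in the bin 0.43. A correction of each library for GC content, added after the data were seen, moved the median of complex I from 0.03 to -0.02 and called 0 members.

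The other genes of the pathway were read from the same fit. The 13 subunits encoded by the mitochondrial genome had a median log2 fold change of 0.14, with 0 called and 8 above 0. The share below 0 was 38.5%, against 50.7% of all genes tested. The range of the 13 was from -0.32 (SE 0.42) for *MT-CO3* to 0.46 (SE 0.45) for *MT-CYB*, the cytochrome b of complex III. *MT-CO3* had 3.69e+03, 959 and 2.63e+03 CPM under EtOH and 2.06e+03, 1.48e+03 and 2.30e+03 CPM under Tet. *MT-CYB* had 5004, 1271 and 3673 CPM under EtOH and 4314, 3231 and 6136 CPM under Tet. Of 51 assembly factors, 48 were tested and 0 called. Their median was -0.17, and 33 lay below 0, or 68.8% against 50.7% of all genes tested. *COA4*, an assembly factor of complex IV, had 53.1, 46.9 and 58.5 CPM under EtOH and 34.9, 32.7 and 51.9 CPM under Tet (-0.41, SE 0.21 and edgeR's adjusted p = 0.546). *COA8* had 10.8, 9.63 and 9.59 CPM under EtOH and 10.9, 12.6 and 15.8 CPM under Tet (0.39, SE 0.21 and edgeR's adjusted p = 0.566). Cytochrome c, *CYCS*, carries electrons from complex III to complex IV. It had 123.3, 350.7 and 120.8 CPM under EtOH and 188.1, 250.02 and 131.3 CPM under Tet, which is the pattern of the members that were high in EtOH replicate 2 (log2 fold change -0.06, SE 0.42 and edgeR's adjusted p = 0.981). *CYC1*, with 0.394 ± 0.155 and 0.666 ± 0.591 CPM, did not pass the threshold either.

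Of 16 regulators of mitochondrial genes, 1 passed the threshold, where 0.236% of all genes tested did. The median was -0.18, and 11 of the 16 (68.75%) lay below 0, against 50.7% of all genes tested. The groups did not overlap for 4 of the 16 (25%), all lower in libraries labelled Tet, against 8.28% of all genes. *PPARGC1B* (ENSG00000155846.17, chr5:149730298-149855022) encodes PGC-1beta, a coactivator of respiratory genes. It had 12.7, 15.8 and 12.5 CPM under EtOH and 5.18, 4.74 and 5.39 CPM under Tet. All libraries labelled Tet were below all labelled EtOH, with a log2 fold change of -1.42 (SE 0.20 and edgeR's adjusted p = 0.0428, with the replicate block 0.0067). It did not pass without EtOH replicate 1 or 3 or without any 1 library labelled Tet (edgeR adjusted p between 0.153 and 0.310), nor after the correction for GC content (0.0524). Its relative *PPARGC1A*, which encodes PGC-1alpha, had the highest log2 fold change of the list, with 73.3, 31.3 and 68.4 CPM under EtOH and 95.7, 70.7 and 85.2 CPM under Tet (0.54, SE 0.30 and edgeR's adjusted p = 0.580). EtOH replicate 1 was above Tet replicate 2, so the groups overlapped. *NRF1* had 9.52 ± 1.001 and 9.78 ± 1.77 CPM (0.04, SE 0.22), and *GABPA*, the DNA-binding subunit of GABP, 89.0 ± 7.02 and 77.5 ± 6.88 CPM (-0.20, SE 0.15), neither past the threshold.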

How the data were processed

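Gene tables of 6 total RNA-seq libraries were used. Per the labels, reads were aligned with STAR 2.7.1a. The deposited values are estimated counts per gene that the authors made with featureCounts (1.5.1 per the labels, 1.6.4 per the file headers). Per the file headers, exons were summed by gene, paired reads overlapping several genes were divided among them, and unique alignments alone were counted, without regard to strand. Stranded counting with other options is given in the study's methods, so overlapping genes and antisense pairs cannot be told apart here. Values that were not whole made up 12.3 to 14.7% of genes and were rounded. The 92 spike-in rows were at 0 and were left out.

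Members and gene lists were chosen with earlier results of these data known. Genes were tested with edgeR 4.0.16 in R 4.3.3 (quasi-likelihood test, TMM scaling, filterByExpr with a minimum of 10 counts, Benjamini-Hochberg adjustment over all 22443 genes, threshold 0.05, no block). The fit was tested on simulated data. CPM uses TMM library sizes and TPM the exon length in the tables. SEs come from the edgeR fit and include the spread between libraries, whereas limits for counts of 0 cover counting error only. DESeq2 1.42.0, limma-voom (limma 3.58.1), other scalings, filters and left-out libraries were alternatives. Same-numbered libraries deviated together from their group means, with correlations of 0.21, 0.73 and 0.55 over 10089 genes of at least 5 CPM (0.06, 0.51 and 0.22 over all 22443), so the block was fitted as a paired analysis. Differently numbered libraries could correlate as much (EtOH 1 with Tet 3 0.53, EtOH 3 with Tet 1 0.23), so the numbers mark the pairs only in part. That pairing comes from the data, not from the labels.

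Values in every library were given for members past the threshold, the lowest and highest log2 fold change per complex at 5 CPM or more, members of that level whose groups did not overlap, the *SDH* genes, the highest TPM per complex, alternative forms that were tested, and the lowest and highest of the other lists at 5 CPM or more. Members described for EtOH replicate 2 or for GC content were chosen after their values were seen. The values of 1 member are not reported here or drawn, but enter the counts and medians.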

Additional observations from a re-analysis of the deposited data

How the results depend on the processing

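Counts of called genes and of called members both moved with the method. In the main fit 84 members and 22443 genes were tested, so the 2 kinds of count are not on one scale. The 53 genes called became 499 with DESeq2, 115 with the GC content correction, 302 with no filter, 675 with the replicate block and 1101 with the replicate block and GC content correction. They ranged from 0 (without Tet replicate 1 or 3) to 692 (without EtOH replicate 2) with 1 library left out. Members called were 0, but 1 with DESeq2, with the replicate block and with the replicate block and GC content correction (*UQCRFS1* each time), and between 0 and 3 with 1 library left out. Regulators called were 0 with the GC content correction and 0 to 1 with 1 library left out. The GC content corrections and the alternatives for the correlation of level with GC content were chosen after seeing the data. The cause of these changes was not tested.

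The median log2 fold change of complex I was -0.0215 with the GC content correction, 0.0797 with limma-voom, 0.0775 with the replicate block, 0.0898 without members that share over 10% of exon bases and -0.0434 in members of at least 5 CPM. That of complex III was -0.38 without members that share exon bases, and that of complex IV -0.24 with limma-voom, -0.23 with the replicate block and -0.25 without such members. With 1 library left out, medians ranged from -0.138 to -0.00784 for all members, -0.0482 to 0.142 for complex I, -0.36 to -0.18 for complex II, -0.249 to -0.0371 for complex IV, -0.241 to -0.050 for assembly factors and -0.223 to 0.0656 for regulators. The Spearman correlation of level with GC content was -0.64 with canonical lengths, -0.80 for members with no pseudogene, -0.70 for those sharing at most 10% of exon bases and -0.39 for those of at least 5 CPM. It was -0.59 for other genes of up to 1000 bases.

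Of 557 comparisons of 33 named genes, 501 kept direction and side of the threshold, and 14 genes changed sign somewhere. With 1 library left out, log2 fold changes ranged from -0.66 to 0.39 for *SDHD*, -0.0319 to 0.138 for *UQCRQ*, -0.10 to 0.12 for *COX6C*, -0.15 to 0.10 for *COX7C*, -0.20 to 0.33 for *ATP5MK*, -0.132 to 0.0273 for *NDUFA4*, -0.35 to 0.10 for *COX4I1*, -0.25 to 0.18 for *COX6A1*, -0.519 to 0.0395 for *COX6B1*, -0.17 to 0.15 for *COX7A2L*, -1.56 to 0.55 for *COX8A*, -0.717 to 0.030 for *ATP5MC1*, -0.70 to 0.10 for *MT-CO3* and -0.35 to 0.64 for *CYCS*. *COX6C* was 0.0045 with the exon length correction and 0.0049 with upper quartile scaling. *ATP5MK* was 0.0285 with limma-voom, 0.0213 with the replicate block and 0.0501 with block and GC content correction. *COX6A1* was 0.0441 with the GC content correction, 0.00129 with the exon length correction, 0.0233 with limma-voom, 0.0359 with the replicate block and 0.0496 with block and GC content correction. *COX8A* was -0.23, -0.53, -0.45 and -0.54 with the GC content correction, limma-voom, the replicate block and both together. *CYCS* was 0.0852 with limma-voom, 0.0795 with the replicate block and 0.076 with block and GC content correction. Depth limits genes near 0.107 CPM, the level of 3 counts in the shallowest library when scaled by total counts.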
